A study of Homo sapiens with 32 samples.

Results

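Numbered ZNF genes are the human genes whose symbol is ZNF followed by a number, and they are the largest named group of zinc finger genes. The FPKM table held 475 such rows, and those with a mean of at least 5 FPKM over the 32 samples were selected on that measured level. This gave 132 members of 22610 entries in the table, 28 of them in rows that the table places on chromosome 19 and 104 on 20 other chromosomes. All 475 were accounted for: 338 had a mean FPKM of at least 1 and entered the tests, of which 206 lay between 1 and 5 FPKM and are not members.

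The proteins of these genes carry repeated C2H2 zinc fingers, short loops in which a pair of cysteines and a pair of histidines hold a zinc ion, and each finger can contact a few bases of DNA. Many also carry a KRAB box, a domain that recruits the corepressor TRIM28 and, through it, a histone methyltransferase and heterochromatin proteins. Others carry a SCAN domain, through which zinc finger proteins pair, or no domain of either kind. Chromosome 19 holds large tandem clusters of KRAB zinc finger genes, several of which are known repressors of retroelements, whereas other numbered ZNF proteins bind RNA, act on ribosomes or work as activators.

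The samples were cultures of SK-N-BE(2), an established human neuroblastoma cell line, treated with 20 µM cannabidiol (CBD), a compound of Cannabis, or with 0.1% ethanol as vehicle for 3, 6, 12 or 24 h. Each of the 8 groups held 4 cultures, no gene was altered in any of them, and all groups are this 1 line. Messenger RNA was sequenced and given as FPKM, fragments per kilobase of transcript scaled to the mapped fragments of the library. The question was how RNA levels differed between CBD and time-matched vehicle at each time. Because the labels do not say whether the 4 cultures were grown apart, p-values measure the spread between these samples.

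Read totals are not part of the table, so the number of reads behind each FPKM is unknown. The relative depth estimated from low values ran from 0.787 to 1.20 and was on average lower with CBD at each time (1.00 against 1.06 at 24 h). All 9 markers of adrenergic neuroblastoma were above 1 FPKM on average, and their summed level was higher with CBD from 6 h on without overlap (3741 to 3920 against 3477 to 3544 FPKM at 24 h). Of 10 markers of leukocytes, epithelium, fibroblasts, endothelium and Schwann cells, 2 (EPCAM and COL1A1) exceeded 1 FPKM. The summed level of these 10 was 7.09 to 7.62 FPKM with CBD and 6.10 to 6.25 FPKM with vehicle at 24 h. The part of depth and of these marker levels in the differences below was not tested.

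All 132 members matched a protein-coding gene of GENCODE on GRCh37, the build of the study's alignment. At least 1 C2H2 pattern was found in the translated reading frames of 130 of them, with a median of 8 and up to 36 in ZNF142. The pattern was 2 cysteines, 12 residues and 2 histidines, and the gap within each pair could vary slightly. A strict KRAB pattern, which can miss diverged boxes, was found in 47 members, 17 of 28 on chromosome 19 and 30 of 104 elsewhere. It occurred in 39 of 17116 coding genes outside the numbered ZNF group. A SCAN pattern was found in 8 members, among them ZNF496. Transcript GC content had a median of 42.5% on chromosome 19 and 48.1% elsewhere.

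The coding strand of the first C2H2 pattern in 4 members that the results turn on is printed here from the GENCODE transcripts (GRCh37). It shows the motif found in 130 of the 132 members. Capitals mark the 2 cysteine and 2 histidine codons.
ZNF496: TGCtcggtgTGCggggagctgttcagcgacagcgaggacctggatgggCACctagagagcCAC
ZNF580: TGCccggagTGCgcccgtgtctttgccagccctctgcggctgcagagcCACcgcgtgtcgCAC
ZNF93: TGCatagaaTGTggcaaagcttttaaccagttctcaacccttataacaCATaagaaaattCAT
ZNF207: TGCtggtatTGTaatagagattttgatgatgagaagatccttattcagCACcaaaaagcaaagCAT
These stretches cover codons 437 to 457 of ZNF496, 94 to 114 of ZNF580, 175 to 195 of ZNF93 and 13 to 34 of ZNF207, with 1 more residue between the histidines in ZNF207.

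The members had a median level of 8.92 FPKM, against 10.7 FPKM over all 12621 genes tested, and chromosome 19 members (8.59 FPKM) and the others (8.99 FPKM) lay close together. ZNF207, a spindle assembly factor that protects BUB3, was highest at 94.8 FPKM, followed by ZNF358 at 67.4, ZNF664 at 59.9, ZNF704 at 45.1 and ZNF593 at 42.9 FPKM. In all, 17 members exceeded 20 FPKM and 71 were under 10 FPKM. Just inside the limit stood ZNF93 (5.03 FPKM), ZNF335 (5.16) and ZNF506 (5.21), and just outside it ZNF219 (4.97), ZNF408 (4.91) and ZNF839 (4.90). No member was at 0 in any sample, and the lowest single value was 3.41 FPKM.

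The members called with CBD were few and all higher at 3 h, and more numerous and mostly lower at 24 h, while 66 of the 132 were called at no time. Each comparison was fitted by limma to log2(FPKM + 1) of all 12621 genes, and a member is called where its Benjamini-Hochberg adjusted p is under 0.01. Members called went from 8 at 3 h (6.06%) to 9 at 6 h (6.82%), 20 at 12 h (15.2%) and 54 at 24 h (40.9%). The share of all genes called rose as well, from 2.46% at 3 h to 10.2%, 20.1% and 42.1%. From 6 h on the members were below it. No member differed by as much as 0.5 on the log2 scale at any time, and the largest difference was 0.46. Of the other 66, 46 were called at 1 time, 16 at 2, 3 at 3 and 1, ZNF496, at all 4 times. Of the 20 members called more than once, 17 kept 1 direction.

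At 24 h, 17 members were higher and 37 lower with CBD. The total of 54 is 40.9% of the members, beside 42.1% of all genes tested, of which 20.8% were higher and 21.3% lower. The share called was thus near that of all genes, while the median member stood at −0.07 on the log2 scale and the median of all genes at −0.003. Negative differences were seen in 89 of the 132 members and positive ones in 43, beside 6412 and 6127 of all 12621 genes tested. When the values were scaled by median ratios, 15 members were higher and 48 lower, and after quantile normalization 17 and 46. The shares of all genes called after these scalings are not given, so the counts do not set the members apart from other genes.

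**Figure D1:**
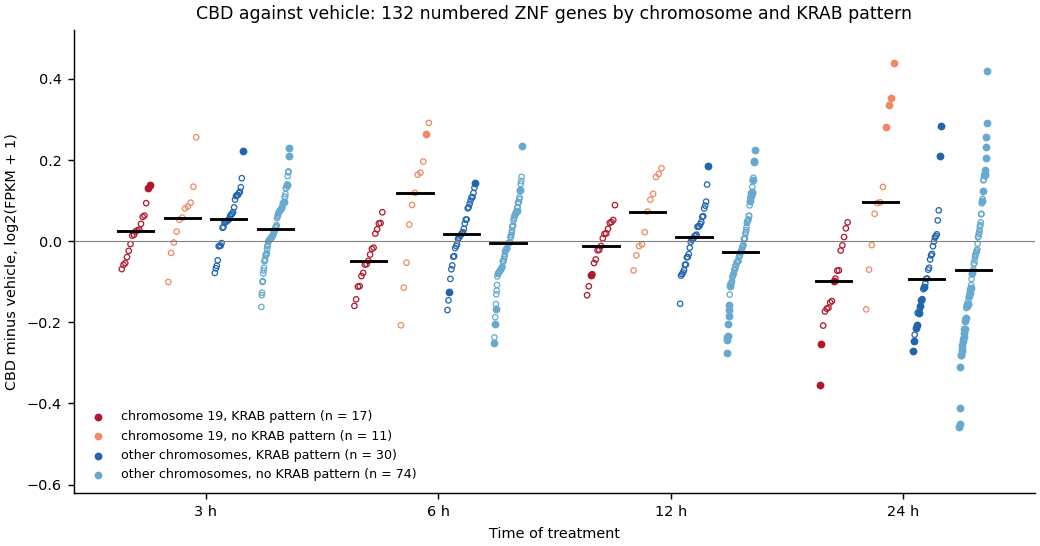
Difference between CBD and vehicle in log2(FPKM + 1) for each of the 132 members at 3, 6, 12 and 24 h, split by chromosome and by KRAB pattern; filled points have an adjusted p under 0.01 and black bars are medians. At 24 h the medians are −0.10, 0.10, −0.09 and −0.07 from left to right.

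The largest fall was that of ZNF395, a DNA-binding factor studied in hypoxia and interferon responses. Its level at 24 h was 30.3, 29.0, 29.5 and 26.9 FPKM with vehicle and 20.7, 20.7, 21.1 and 20.7 FPKM with CBD, so that each CBD culture lay below each vehicle culture. The log2 difference was −0.46 ± 0.04 (SE, n = 4 and 4; limma adjusted p = 6.4e-10). At 3 h its vehicle values were lower, between 17.3 and 18.6 FPKM, and with CBD it also rose by 0.23 ± 0.04 between 3 and 24 h (adjusted p = 1.3e-05). ZNF395 shares part of its locus with FBXO16, and with overlapping genes counted 33.0% of its 50-base words also occur in another gene.

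ZNF503, a transcriptional repressor of nervous system development, fell from 7.17, 7.69, 7.02 and 6.94 FPKM in vehicle to 4.74, 4.48, 5.26 and 5.60 FPKM with CBD at 24 h (−0.45 ± 0.06, adjusted p = 3.6e-07). ZNF326, a subunit of the DBIRD complex that links transcript elongation with splicing, read 18.2, 18.2, 18.5 and 18.7 FPKM in vehicle and 14.5, 13.1, 13.5 and 13.4 FPKM with CBD (−0.41 ± 0.05, adjusted p = 1.8e-07). For ZNF207 the 24 h values were 83.9, 89.2, 90.7 and 90.4 FPKM with vehicle and 72.3, 73.2, 70.0 and 69.1 FPKM with CBD. Again no CBD culture reached the lowest vehicle culture (−0.31 ± 0.03, adjusted p = 2.7e-10). ZNF281, a regulator studied in stem cells, changed by −0.28 ± 0.03 (adjusted p = 9.3e-10).

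The gene with the most regular rise was ZNF496, a SCAN zinc finger protein that binds the histone methyltransferase NSD1. At 24 h it read 16.1, 15.9, 16 and 16.1 FPKM with vehicle and 21.3, 22.3, 22.7 and 20.9 FPKM with CBD. The difference was 0.42 ± 0.03 on the log2 scale, a 1.34-fold higher FPKM + 1 (adjusted p = 1.6e-11). It had stood at 0.14 ± 0.03 at 3 h, 0.23 ± 0.03 at 6 h and 0.20 ± 0.03 at 12 h. The 3 h call was the least firm: its adjusted p of 0.0077 went to 0.044 without CBD 3 h replicate 2, and 7 of the 8 single samples left out at that time raised it above 0.01.

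The other rises at 24 h were led by ZNF580, ZNF581 and ZNF121, all on chromosome 19. ZNF74 on chromosome 22, in the region deleted in DiGeorge syndrome, went from 16.5, 16, 15.4 and 15.2 FPKM to 19.1, 19.1, 20.1 and 19.3 FPKM (0.28 ± 0.03, adjusted p = 1.8e-08). ZNF593, a ribosome assembly factor, read 38.6, 37.7, 37.7 and 35.9 FPKM with vehicle and 42.5, 43.1, 48.1 and 46.3 FPKM with CBD (0.26 ± 0.06, adjusted p = 6.8e-04). With the antisense gene ZNF593OS counted, 87.1% of the words of ZNF593 recur elsewhere. Words were matched on both strands, while the paper describes its reads as first stranded, so 87.1% need not be a share of ambiguous reads.

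**Figure D2:**
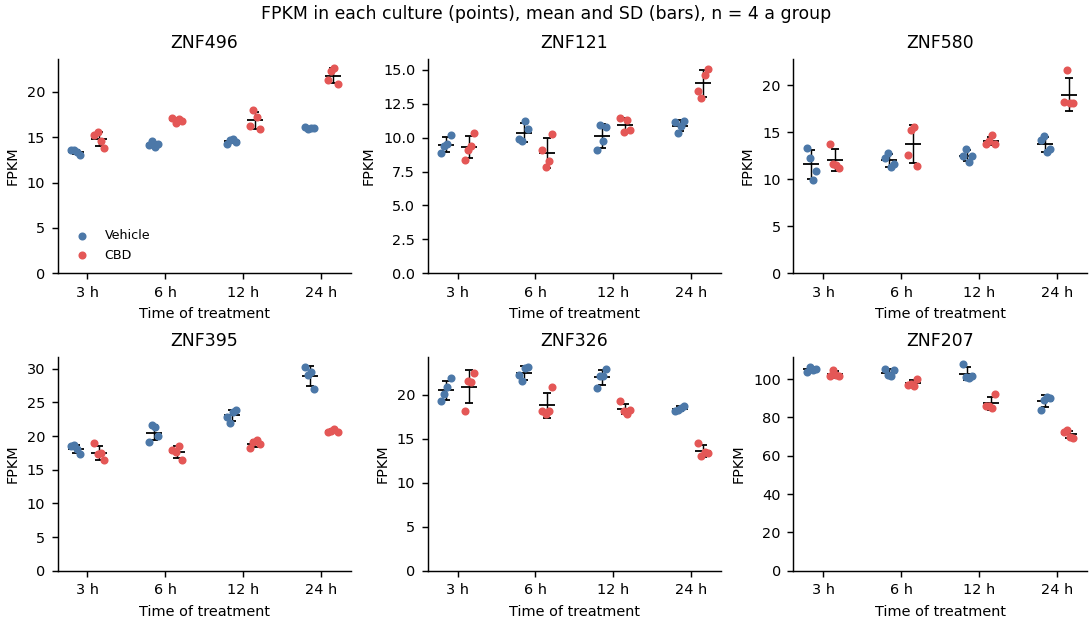
FPKM of 6 members in each culture by time and treatment, with the group mean and SD (n = 4). ZNF496, ZNF121 and ZNF580 end above vehicle at 24 h and ZNF395, ZNF326 and ZNF207 below it; ZNF395 reaches 26.9 to 30.3 FPKM in vehicle at 24 h and 20.7 to 21.1 FPKM with CBD.

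On chromosome 19 the members were split at 24 h. Of the 28 members there, 4 rose and 3 fell, beside 13 and 34 of 104 elsewhere. This is 25% of the chromosome 19 members and 45.2% of the others, beside 42.1% of all genes and 34.8% of the 683 other genes tested on chromosome 19 (117 higher, 121 lower). The median difference was −0.05 on chromosome 19 and −0.08 on the other chromosomes, a gap of 0.029. At 3, 6 and 12 h the gap was −0.019, −0.014 and 0.028. When the median deviation of chromosome 19 members minus that of the others was instead taken in each culture at 24 h, it was 0.0202 ± 0.0411 with CBD and 0.0224 ± 0.0081 with vehicle (SD, n = 4 each), so the groups overlapped and their means did not show the gap. The sign of the gap at 3 and 6 h also turned when single cultures were left out. Those 683 genes had a median of 0.00 at 24 h and the 11600 other genes elsewhere −0.002.

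Within chromosome 19, members with and without the KRAB pattern were called in opposite directions. None of the 17 members with the pattern rose and 3 fell (ZNF317, ZNF93 and ZNF85), with a median of −0.10. Of the 11 without it, 4 rose (ZNF580, ZNF581, ZNF121 and ZNF787) and none fell, with a median of 0.10. These are 17.6% and 36.4% called, both under the 42.1% of all genes, of which 20.8% were higher and 21.3% lower. Elsewhere the 30 members with the pattern had a median of −0.09 (2 higher, 8 lower, 33.3% called). The 74 without it had a median of −0.07 (11 higher, 26 lower, 50% called). No test was made of the difference between these groups, which were formed after values were seen.

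ZNF580 and ZNF581 lie side by side at chr19:56146382-56154836 and chr19:56146825-56156989 (GRCh37, plus strand), so their annotated spans overlap. With CBD, ZNF580 read 18.2, 21.6, 18.2 and 18.1 FPKM at 24 h against 14.2, 14.6, 12.9 and 13.2 FPKM with vehicle (0.44 ± 0.08, adjusted p = 7.3e-05). ZNF581 read 13.1, 12.7, 14.3 and 12.7 FPKM against 11, 10.1, 10.2 and 9.22 FPKM (0.35 ± 0.07, adjusted p = 8.8e-05). Counting overlapping genes, 11.8% and 19.6% of their words recur in another gene, so the split of reads between the pair is uncertain. Neither gene was called before 24 h.

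ZNF121, a gene without the KRAB pattern at chr19:9671005-9695180, crossed from below to above vehicle. At 6 h it read 9.90, 9.76, 11.2 and 10.6 FPKM with vehicle and 9.11, 7.80, 8.31 and 10.3 FPKM with CBD, which overlapped (−0.21 ± 0.07, adjusted p = 0.034). At 24 h the values were 11.1, 10.3, 10.9 and 11.2 FPKM with vehicle and 13.4, 12.9, 14.6 and 15.1 FPKM with CBD (0.34 ± 0.07, adjusted p = 1.8e-04). The change of the CBD difference from 6 to 24 h was 0.54 ± 0.10 (adjusted p = 1.1e-04), the largest rise of any member in that comparison. ZNF787 was called at 24 h (0.28 ± 0.08, adjusted p = 0.0050), but its CBD values of 6.67, 4.77, 6.47 and 5.90 FPKM overlapped the vehicle values of 5.10, 4.95, 4.52 and 4.23 FPKM.

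On the other side stood a run of 9 members over chr19:19896648-24312770 (GRCh37), in order ZNF506, ZNF253, ZNF93, ZNF486, ZNF85, ZNF714, ZNF43, ZNF675 and ZNF254. All 9 had negative differences at 24 h, from −0.36 to −0.07 with a median of −0.16, though the run was picked after its values were seen and carries no test. Of all 12621 genes tested, 6412 were negative at 24 h. ZNF93, a KRAB repressor of older LINE-1 elements, fell from 4.67, 4.78, 5.10 and 4.78 FPKM with vehicle to 3.66, 3.67, 3.49 and 3.41 FPKM with CBD (−0.36 ± 0.05, adjusted p = 2.5e-06). ZNF85 fell from 9.27, 9.53, 10.1 and 10.2 FPKM to 8.52, 7.94, 7.89 and 7.77 FPKM (−0.25 ± 0.05, adjusted p = 2.8e-04). The other 7 were not called, with adjusted p from 0.017 for ZNF486 to 0.23 for ZNF714. The summed level of the 9 was 67.9 to 69.6 FPKM with vehicle and 58.8 to 62.8 FPKM with CBD at 24 h.

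**Figure D3:**
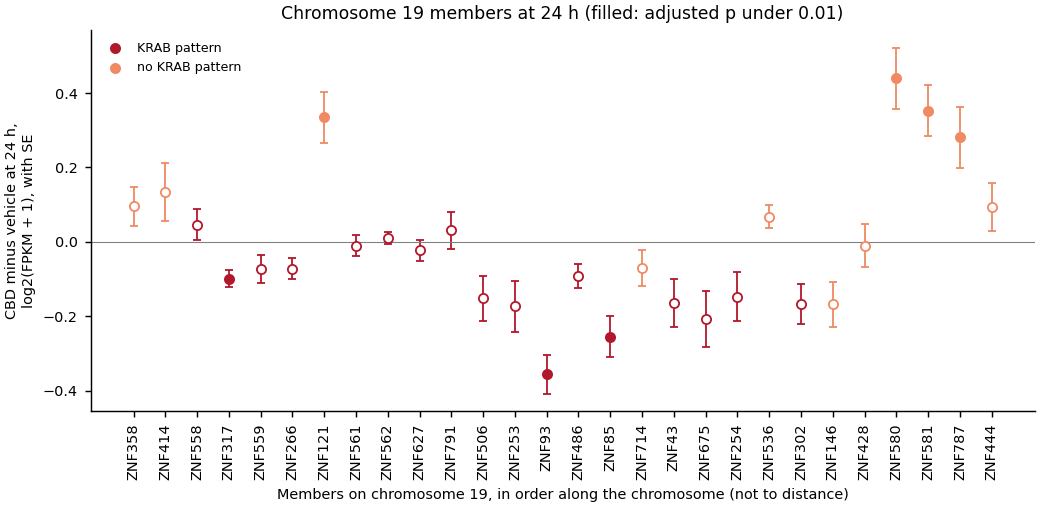
Difference between CBD and vehicle at 24 h in log2(FPKM + 1), with its SE, for the 28 members on chromosome 19 in order along the chromosome; filled points have an adjusted p under 0.01. The 9 members from ZNF506 to ZNF254 are all below 0, and the called rises are ZNF121, ZNF580, ZNF581 and ZNF787.

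The promoters of these neighbours are shown because all 9 differences had 1 sign, although only 2 of the 9 (22.2%, beside 42.1% of all genes) were called. RefSeq promoters (GRCh38.p14) were given for 7 of the 9, and the 150 bases before the start site are printed below 5′ to 3′ on the gene's strand. Capitals mark the 12-base words found in 6 of the 7 promoters, the most widely shared.
ZNF93 (chr19:19900796-19900945, plus): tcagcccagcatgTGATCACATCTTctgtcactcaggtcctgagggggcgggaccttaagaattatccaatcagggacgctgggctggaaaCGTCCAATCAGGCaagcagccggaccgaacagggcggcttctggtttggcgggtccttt
ZNF486 (chr19:20167064-20167213, plus): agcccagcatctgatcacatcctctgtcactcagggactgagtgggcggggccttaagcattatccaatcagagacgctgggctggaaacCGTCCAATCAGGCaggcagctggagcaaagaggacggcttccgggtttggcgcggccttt
ZNF85 (chr19:20923101-20923250, plus): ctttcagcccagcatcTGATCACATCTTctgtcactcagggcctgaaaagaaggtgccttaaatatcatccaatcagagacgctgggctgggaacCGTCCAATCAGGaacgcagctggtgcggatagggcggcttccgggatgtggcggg
ZNF714 (chr19:21082053-21082202, plus): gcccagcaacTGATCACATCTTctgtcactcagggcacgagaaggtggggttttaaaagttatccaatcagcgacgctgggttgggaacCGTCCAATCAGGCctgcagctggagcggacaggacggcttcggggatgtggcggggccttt
ZNF43 (chr19:21836183-21836332, minus): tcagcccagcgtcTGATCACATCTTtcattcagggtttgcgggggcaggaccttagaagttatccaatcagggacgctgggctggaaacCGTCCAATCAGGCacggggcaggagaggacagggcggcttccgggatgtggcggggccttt
ZNF675 (chr19:23687213-23687362, minus): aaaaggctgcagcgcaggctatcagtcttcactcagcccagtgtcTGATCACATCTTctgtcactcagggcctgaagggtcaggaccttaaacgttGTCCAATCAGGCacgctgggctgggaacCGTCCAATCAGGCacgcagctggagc
ZNF254 (chr19:24087037-24087186, plus): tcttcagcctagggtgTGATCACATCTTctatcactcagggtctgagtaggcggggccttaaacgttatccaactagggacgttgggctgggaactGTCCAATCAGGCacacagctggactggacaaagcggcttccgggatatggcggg

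The word TGATCACATCTT was missing from ZNF486 alone, CGTCCAATCAGG from ZNF254 alone and the overlapping word GTCCAATCAGGC from ZNF85 alone. Over both strands of the 250 bases before 35116 RefSeq start sites, these words occurred in 14, 27 and 31 promoters (0.0399%, 0.0769% and 0.0883%). Among the 118 members with a promoter in the table, 6, 6 and 8 held them. The last pair of words contains CCAAT, a short sequence found on either strand of 54 of the 118 member promoters (45.8%), 13 of 25 on chromosome 19, all 7 of the run, and 32.0% of all promoters. These matches describe the letters of the sequences only.

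The early samples showed few and small rises. At 3 h the 8 called members were all higher with CBD, 6.06% of the members beside 2.46% of all genes tested, of which 1.18% were higher and 1.28% lower. Positive differences were seen in 96 of 132 members, beside 6799 of all 12621 genes tested, with a median of 0.04 beside 0.007 for all genes. ZNF768 led with 23.0, 22.2, 22.0 and 20.7 FPKM against 19.8, 18.2, 18.9 and 17.4 FPKM with vehicle (0.23 ± 0.05, adjusted p = 0.0029). ZNF777 read 7.20, 7.76, 7.83 and 7.00 FPKM against 6.51, 6.35, 6.07 and 6.03 FPKM (0.22 ± 0.04, adjusted p = 0.0010), and ZNF691 9.23 to 9.72 FPKM in 3 CBD cultures and 8.27 FPKM in the first, against 7.33 to 8.15 FPKM (0.21 ± 0.04, adjusted p = 0.0039).

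These 3 h calls rested on the spread shared over all 8 groups. ZNF317, a KRAB gene of chromosome 19, was higher in each CBD culture at 14.3 to 15.5 FPKM against 13.3 to 13.5 FPKM (0.14 ± 0.02, adjusted p = 4.7e-04), and then fell at 12 h (−0.08 ± 0.02, adjusted p = 0.0088) and at 24 h (−0.10 ± 0.02, adjusted p = 9.6e-04). ZNF627, ZNF629, ZNF496 and ZNF512 made up the rest. With the 3 h groups fitted alone limma called 0 members, beside 0.23% of all genes, and 27 members had an unadjusted p under 0.05, against 46 in the fit of all groups. The count was 4 without CBD 3 h replicate 2 or without Vehicle 3 h replicate 4, and 5 without CBD 3 h replicate 3 or Vehicle 3 h replicate 2.

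GC content moved with the early differences. The 43 members with a transcript GC of at least 55% had a median of 0.08 at 3 h, and 40 of them were positive. All 3678 genes tested in that GC range had a median of 0.03, and 2423 of them were positive. The 61 members under 45% GC had a median of 0.02 at 3 h and −0.09 at 24 h, beside −0.01 and −0.01 for all 4637 genes of that range. After a correction of each sample for GC content and length, 13 members were called at 3 h, all higher, and 75 at 24 h, of which 19 were higher and 56 lower. The share of all genes called after this correction is not given, so these counts do not set the members apart from other genes. The part of GC content in these differences was not tested further.

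At 6 h, 5 members rose and 4 fell, 6.82% of the members beside 10.2% of all genes tested, of which 4.07% were higher and 6.13% lower. ZNF358 rose from 65.2, 66.1, 64.3 and 58.5 FPKM to 79.1, 76.9, 80.1 and 70.2 FPKM (0.27 ± 0.05, adjusted p = 6.6e-04), with 28.4% of its words shared when overlapping genes are counted. ZNF384, a factor fused to other genes in leukemia, rose by 0.13 ± 0.03 (adjusted p = 0.0086) and ZNF783 by 0.14 ± 0.04 (adjusted p = 0.0099). ZNF326 fell from 22.2, 21.5, 23.1 and 23.2 FPKM to 18.2, 17.8, 18.2 and 20.9 FPKM (−0.25 ± 0.05, adjusted p = 8.7e-04) and ZNF395 changed by −0.20 ± 0.04 (adjusted p = 7.8e-04). With the 6 h groups alone 1 member was called, and the count was 4 without CBD 6 h replicate 2, 5 without CBD 6 h replicate 1 or Vehicle 6 h replicate 3, and 14 without CBD 6 h replicate 4.

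ZNF143, an activator that binds many promoters, reversed its sign between 6 and 24 h. With vehicle it read 6.41, 6.26, 7.02 and 6.52 FPKM at 6 h and with CBD 5.50, 5.60, 5.76 and 6.02 FPKM (−0.17 ± 0.04, adjusted p = 0.0049). At 24 h it was higher with CBD at 7.09, 7.97, 7.86 and 7.88 FPKM against 6.44, 6.32, 6.53 and 6.85 FPKM (0.21 ± 0.04, adjusted p = 1.5e-04). Both times the groups did not overlap, and the change itself was 0.37 ± 0.06 (adjusted p = 2.0e-05). ZNF669 fell at 6 h by 0.12 ± 0.03 (adjusted p = 0.0049) and at 24 h by 0.16 ± 0.03 (adjusted p = 8.2e-05).

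At 12 h, 10 members rose and 10 fell, 15.2% of the members beside 20.1% of all genes tested, of which 8.85% were higher and 11.2% lower. ZNF692 rose from 15.4 to 16.2 FPKM in vehicle to 17.2 to 19.9 FPKM with CBD (0.22 ± 0.06, adjusted p = 0.0038). ZNF239 rose from 10.3 to 11.3 FPKM to 11.9 to 13 FPKM (0.20 ± 0.04, adjusted p = 0.0011), and it was not called at the other times. ZNF395 (−0.28 ± 0.04), ZNF326 (−0.24 ± 0.05), ZNF503 (−0.24 ± 0.06) and ZNF207 (−0.23 ± 0.03) were the largest falls, and all 4 were also lower at 24 h. After quantile normalization 7 members were higher and 13 lower at 12 h, again without the share of all genes. The count was 13 without CBD 12 h replicate 1, the sample of lowest relative depth, and 11 with the 12 h groups fitted alone.

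The CBD difference itself changed with time in 45 members between 3 and 24 h, 34.1% of the members beside 27.2% of all genes tested. Of these, 5 moved up and 40 moved down, whereas 12.9% of all genes moved up and 14.3% down. The largest moves down were ZNF326 (−0.44 ± 0.07, adjusted p = 2.7e-05), ZNF395 (−0.41 ± 0.06, adjusted p = 3.2e-06) and ZNF189 (−0.37 ± 0.06, adjusted p = 3.7e-05). ZNF189, a KRAB gene, read 6.41, 7.33, 7.52 and 7.66 FPKM with CBD at 3 h against 6.25 to 6.81 FPKM, and 5.99, 5.28, 5.92 and 5.70 FPKM at 24 h against 6.68 to 7.18 FPKM. The moves up were led by ZNF121 (0.36 ± 0.10, adjusted p = 0.0039), ZNF496 (0.28 ± 0.04, adjusted p = 1.3e-05) and ZNF74 (0.23 ± 0.04, adjusted p = 1.5e-04). Of the 17 chromosome 19 members with the KRAB pattern 4 moved down and 0 up, and of the 11 without it 1 moved up.

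**Figure D4:**
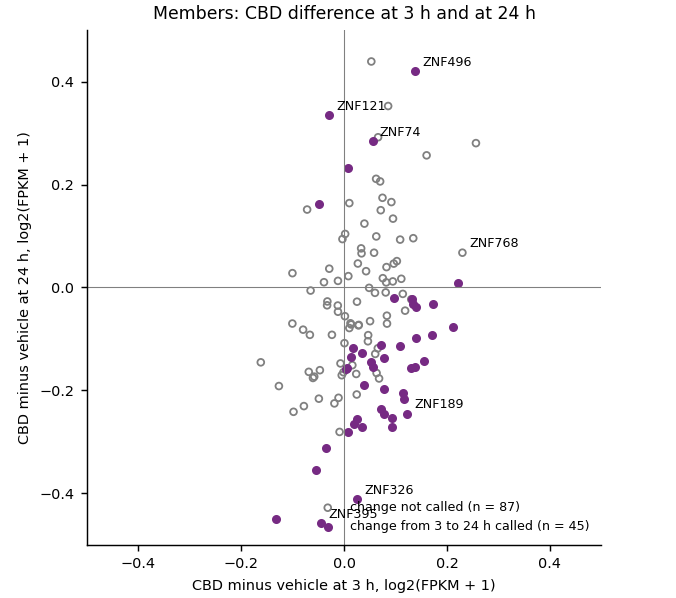
Difference between CBD and vehicle at 3 h (horizontal) and at 24 h (vertical) in log2(FPKM + 1) for the 132 members; the 45 filled points have an adjusted p under 0.01 for the change between the 2 times. Most of the filled points lie to the right of 0 on the horizontal axis and below 0 on the vertical axis.

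Between 6 and 24 h the CBD difference changed in 30 members, 22.7% beside 20.5% of all genes, with 8 up and 22 down (all genes: 10.9% up and 9.67% down). The rises were led by ZNF121 and ZNF143 and by ZNF277 (0.29 ± 0.09, adjusted p = 0.0094), which read 9.996 to 10.4 FPKM with CBD and 7.45 to 8.48 FPKM with vehicle at 24 h. The falls were led by ZNF85 (−0.33 ± 0.08, adjusted p = 0.0018), ZNF362 (−0.30 ± 0.05, adjusted p = 2.5e-05) and ZNF747 (−0.29 ± 0.07, adjusted p = 0.0036).

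ZNF747 belongs to a second run of neighbours, 9 members over chr16:30389427-31095517 (GRCh37), in order (ZNF48, ZNF768, ZNF747, ZNF764, ZNF688, ZNF689, ZNF629, ZNF668 and ZNF646), likewise picked after values were seen. At 3 h all 9 differences were positive, from 0.0006 to 0.23, with ZNF768 and ZNF629 called (22.2%, beside 2.46% of all genes). Of all 12621 genes tested, 6799 were positive at 3 h and 6412 negative at 24 h. At 24 h 8 of 9 were negative and 5 were called lower, ZNF48, ZNF747, ZNF689, ZNF629 and ZNF646. That is 55.6% of the run, beside 42.1% of all genes called and 21.3% called lower. ZNF646 stood at −0.25 and ZNF629 at −0.15 on the log2 scale. In cultures with CBD all 9 fell between 3 and 24 h, by 0.15 for ZNF768 to 0.59 for ZNF689, where 35.7% of all genes fell. In vehicle 7 of the 9 were negative over the same time and 5 fell, with a median of −0.15 beside −0.43 with CBD, where 31.1% of all genes fell.

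Time in culture also moved the members. From 3 to 24 h in vehicle, 24 members rose and 39 fell, 47.7% beside 57.8% of all genes tested, of which 26.6% rose and 31.1% fell. ZNF395 rose most (0.65 ± 0.04, adjusted p = 3.8e-13), followed by ZNF608 (0.51 ± 0.04), from 6.76 to 7.53 FPKM to 10.4 to 10.8 FPKM, and ZNF558 (0.48 ± 0.04), from 8.27 to 8.99 FPKM to 11.9 to 13.3 FPKM. ZNF410, the activator of the CHD4 gene, fell most, from 22.0 to 23.9 FPKM to 16.3 to 17.6 FPKM (−0.42 ± 0.03, adjusted p = 5.6e-13), followed by ZNF689 (−0.41 ± 0.03) and ZNF142 (−0.35 ± 0.04).

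In the CBD cultures 24 members rose and 63 fell between 3 and 24 h, 65.9% beside 67.8% of all genes (32.1% up and 35.7% down). The 2 series share no samples. Chromosome 19 members numbered 4 up and 7 down in vehicle and 5 up and 8 down with CBD, the others 20 up and 32 down in vehicle and 19 up and 55 down with CBD.

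The summed FPKM of the members at 24 h was 1701 to 1716 with vehicle and 1635 to 1678 with CBD, and at 3 h 1727 to 1737 with vehicle and 1743 to 1811 with CBD, with no overlap at either time. Without ZNF207, the largest contributor, the sums at 24 h were 1610 to 1632 and 1563 to 1608 FPKM, still apart. The sum over members with the KRAB pattern was 411 to 416 FPKM with vehicle and 386 to 397 FPKM with CBD at 24 h. By contrast the chromosome 19 sums overlapped (312 to 323 FPKM with vehicle and 318 to 329 FPKM with CBD). As these are bulk cultures, fewer expressing cells and less RNA per cell cannot be told apart, and FPKM cannot show a change in total RNA.

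**Figure D5:**
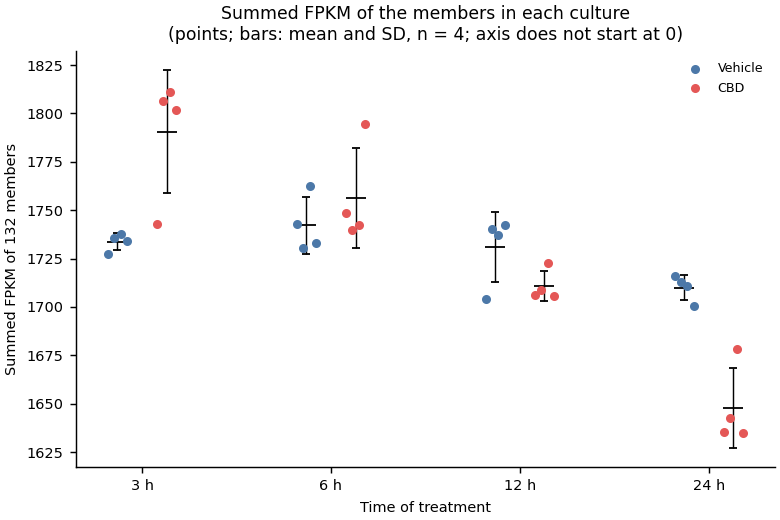
Summed FPKM of the 132 members in each culture by time and treatment, with the mean and SD (n = 4); the vertical axis does not start at 0. CBD cultures lie above vehicle at 3 h (1743 to 1811 against 1727 to 1737) and below it at 24 h (1635 to 1678 against 1701 to 1716).

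Role by role, the shares called at 24 h are read beside those of all genes, 42.1% called, 20.8% higher and 21.3% lower. Of 8 genes measured on a list of 9 that act on RNA and ribosomes, all of them members, 2 rose and 2 fell (50% called, near the share of all genes). ZNF593 and ZNF346, which binds double-stranded RNA (0.23 ± 0.03, adjusted p = 9.7e-07), were higher, and ZNF207 and ZNF326 lower. ZNF598, a ubiquitin ligase of collided ribosomes, stood at 0.15 ± 0.05 (adjusted p = 0.022), and ZNF622, a factor of large ribosomal subunit maturation, at −0.03 ± 0.04 (adjusted p = 0.56). ZNF638 and ZNF106 were not called at any time.

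On a list of 18 transcription and chromatin factors, of which 16 are members, 10 fell and 1 (ZNF143) rose at 24 h, 61.1% beside 42.1% of all genes, with a median of −0.13. ZNF687 (−0.26 ± 0.05) and ZNF532 (−0.16 ± 0.03), which form a complex with ZMYND8, fell, while ZNF592 of the same complex stood at −0.03 ± 0.03 (adjusted p = 0.39). ZNF423, a partner of EBF factors in neural cells, changed by −0.20 ± 0.03 (adjusted p = 4.7e-06) and ZNF217, amplified in breast cancer, by −0.13 ± 0.03 (adjusted p = 2.7e-04). ZNF711, an X-linked gene of intellectual disability, changed by −0.28 ± 0.07 (adjusted p = 0.0013), ZNF462 by −0.22 ± 0.04 (adjusted p = 1.6e-04) and ZNF644 by −0.23 ± 0.06 (adjusted p = 0.0022, and 0.011 without CBD 24 h replicate 4).

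Of the 4 listed repressors of retroelements or of their own gene clusters, only ZNF93 is a member. ZNF91 (3.34 FPKM), ZNF274 (2.15 FPKM) and ZNF649 (1.76 FPKM) were under the limit, and at 24 h they stood at −0.11, 0.02 and −0.11 with adjusted p of 0.30, 0.80 and 0.012.

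A chosen list of corepressor and chromatin genes linked to KRAB repression was measured in full, and it is not a complete set of such genes. Of the 18 on the list, 9 fell and 1 rose at 24 h, 55.6% beside 42.1% of all genes, with a median of −0.11 beside −0.003 for all genes. TRIM28, the direct partner of the KRAB box, changed by −0.21 ± 0.03 (adjusted p = 5.7e-06), and SETDB1, its histone methyltransferase, by 0.14 ± 0.03 (adjusted p = 1.5e-04). The largest fall was in UHRF1, which maintains DNA methylation (−0.63 ± 0.04, adjusted p = 6.3e-14), followed by the deacetylase HDAC1 (−0.27 ± 0.03) and PPHLN1 of the HUSH complex (−0.22 ± 0.04). UHRF1 also fell in vehicle from 3 to 24 h (−0.70 ± 0.04), where 5 of the 18 rose and 5 fell. CBX1, the heterochromatin protein, fell by 0.21 ± 0.03, and CBX3 and CBX5 were not called. At 3 h none of the 18 was called by limma, and 5 had an unadjusted p under 0.05.

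Beside the members, the 206 numbered ZNF genes between 1 and 5 FPKM had 20 higher and 46 lower calls at 24 h (32% called, beside 42.1% of all genes) with a median of −0.05, and 5 higher and 0 lower calls at 3 h (2.43% beside 2.46%). Their 3 h median was 0.037 with 142 positive, close to the members at 0.041 with 96 of 132 positive. The 683 other genes tested on chromosome 19 had a 3 h median of 0.036 with 461 positive, and the 11600 other genes elsewhere 0.004 with 6100 positive. Among other zinc finger families at 24 h, beside 20.8% of all genes higher and 21.3% lower, 6 of 7 ZKSCAN genes fell and none rose, 4 of 14 ZSCAN genes fell, 8 of 31 ZBTB genes fell and 1 rose, and 2 of 12 ZFP genes rose and 2 fell. Of the 10 KLF genes 6 were higher and 1 lower, with a median of 0.22.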

How the data were processed

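SK-N-BE(2) messenger RNA libraries of 32 cultures were trimmed by the authors with Trimmomatic 0.36 and aligned to hg19 with TopHat, allowing up to 2 mapping locations, and the authors deposited FPKM per gene from Cufflinks. FPKM are scaled to each library and carry no read totals, so read-count error is not known. Columns holding the authors' Cuffdiff comparisons (fold changes, p and q values) were not used. No per-sample column was left unmapped.

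Groups came from sample titles. FPKM were tested with limma 3.58.1 (R 4.3.3) on log2(FPKM + 1) for the 12621 genes averaging 1 FPKM or more, with 8 group means in 1 model, an intensity trend and Benjamini-Hochberg adjustment within each comparison (threshold 0.01). Adding 1 understates the change of low genes. Errors are standard errors. Differences between CBD and vehicle, their changes between times and the time course within each treatment were fitted. On simulated data, 59% of genes changed by 0.2 and 92% of those changed by 0.5 (log2) were recovered in the 24 h comparison over 12621 genes. The simulation changed 100 genes by each size and gave each gene 1 spread in all groups. In the measured 24 h comparison 42.1% of genes were called, so these rates do not carry over to it. Samples were not paired by replicate number in the main fit (correlations of same-numbered deviations from −0.0757 to 0.0935 over 16 pairs).

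Members, lists and tests were chosen with earlier results of these data known. Named were, at each time, the 4 largest rises and falls among called members whose groups did not overlap, members called at all 4 times, the 5 of highest level, 3 on each side of the limit, the 3 largest changes in each direction between times, and listed genes. Further genes, such as those of the neighbour runs, were named after their values were seen. Reading frames and 50-base words came from GENCODE transcripts on GRCh37, and promoters from RefSeq. Of the members, only ZNF322 shared over 10% of its words with a non-overlapping gene. Words were matched exactly and on both strands. The study's alignment allowed mismatches and its reads were described as first stranded, so these shares are not shares of ambiguous reads.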

Additional observations from a re-analysis of the deposited data

Results flagged for a closer look

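The CBD difference changed between times, by a test of the change itself, in 45 members from 3 to 24 h and in 30 from 6 to 24 h. Named changes from 3 to 24 h were 0.36 for ZNF121, 0.28 for ZNF496, 0.23 for ZNF74, −0.37 for ZNF189, −0.44 for ZNF326 and −0.41 for ZNF395. From 6 to 24 h they were 0.54 for ZNF121, 0.37 for ZNF143, 0.29 for ZNF277, −0.30 for ZNF362, −0.29 for ZNF747 and −0.33 for ZNF85.

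In 13 of 168 groups of 4 cultures, over 20 lead members and the summed level, 1 culture stood far from the other 3, where chance gives about 1 in 20. With CBD at 24 h these were ZNF580 (21.6 FPKM, the others 18.1 to 18.2), ZNF143 (7.09, the others 7.86 to 7.97) and ZNF669 (8.31, the others 7.73 to 7.76). In the CBD 6 h group they were ZNF326 (20.9 FPKM, the others 17.8 to 18.2), ZNF239 (12.4, the others 10.8 to 11) and the summed FPKM (1794, the others 1740 to 1749), all in replicate 4, and ZNF503 (6.70, the others 6.04 to 6.14). ZNF207 stood apart at 105 FPKM with CBD at 3 h, 92.4 with CBD at 12 h and 108 with vehicle at 12 h, and ZNF143 at 6.60 with vehicle at 12 h. The summed FPKM stood apart at 1743 in CBD 3 h replicate 1 and at 1704 in Vehicle 12 h replicate 1.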

How the results depend on the processing

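Followed were 76 values of named members, each already called in the main fit, and none changed direction under any alternative. Named values that were not called, and named genes outside the members, were not followed. Over the 76 values, calls were lost 51 times and kept 1134 times under the other alternatives. With 1 sample left out they were lost 85 times and kept 619 times. With a limit of 10 FPKM in place of 5, fewer members remain by construction, and called were 4 at 3 h, 10 at 12 h, 27 at 24 h, 25 and 17 for the changes from 3 and 6 to 24 h, 30 for vehicle and 44 for CBD over time. Under that limit the chromosome 19 gap turned from −0.014 to 0.0147 at 6 h and was 0.0666 at 24 h. With the groups of a comparison fitted alone, 0, 1 and 11 members were called at 3, 6 and 12 h, with fewer samples in the fit. GC and length correction, chosen after seeing the data, gave 13 at 3 h, 21 at 6 h (and a 6 h gap of 0.0034) and 46 for the change from 6 to 24 h, and the cause was not tested.

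The replicate block gave 15 members called at 6 h in place of 9. It also gave 10 in place of 8 at 3 h. At 12 and 24 h it gave 24 and 65 in place of 20 and 54. For fits other than the main one, the share of all genes called is given only for the 3 h groups fitted alone. Counts from the other fits therefore do not set the members apart from other genes. The labels give same-numbered cultures only a number in common, and 5 of 16 CBD samples correlated best with their own number. Whether a replicate effect is shared across groups was not tested further.

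With 1 sample left out, counts ran from 4 to 12 at 3 h, 4 to 14 at 6 h, 13 to 19 at 12 h, 50 to 55 at 24 h, 38 to 54 and 23 to 31 for the changes, 53 to 62 for vehicle and 77 to 91 for CBD over time. The chromosome 19 gap ran from −0.0365 to 0.00470, −0.0301 to 0.000776, 0.0138 to 0.0422 and 0.0229 to 0.0399 in order of time, crossing 0 at 3 h without CBD replicate 1 or Vehicle replicate 4 and at 6 h without CBD replicate 2. Relative depth as a term, chosen after seeing the data, gave 6, 8, 15 and 54.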
